A study of Homo sapiens with 4 samples.

Results

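HOX genes encode homeodomain transcription factors, and the 39 protein-coding HOX genes examined here were all those named HOXA, HOXB, HOXC or HOXD with a number in GENCODE release 44, out of 20033 protein-coding genes. They lie in 4 clusters, with 11 genes in HOXA on chromosome 7, 10 in HOXB on chromosome 17, 9 in HOXC on chromosome 12 and 9 in HOXD on chromosome 2. RNA polymerase II (Pol II) was profiled by chromatin immunoprecipitation and sequencing (ChIP-seq) in SK-OV-3, an established human ovarian cancer line. The control cells carried a short hairpin RNA against the bacterial gene LacZ (shLacZ), and the knockdown cells carried a hairpin (shRRN3) against the RNA polymerase I initiation factor RRN3. Both were stable lines made with a lentiviral hairpin vector, and which of the study's RRN3 hairpins was used for ChIP-seq is not stated in the sources used here. Each hairpin had 1 Pol II library with 1 list of peaks, and the input libraries (2) were not used here.

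HOX genes give cells their position along the body axis. Within a cluster all genes are ordered along the chromosome as they are used along the embryo, with low-numbered (anterior) genes opened first and high-numbered (posterior) genes later, and genes with the same number in different clusters are paralogues. In adult tissue many HOX genes are kept silent by Polycomb complexes, others stay active in a pattern typical of the tissue, and in the female reproductive tract posterior HOXA genes mark successive segments from the oviduct to the vagina. The proteins bind DNA together with the TALE homeodomain partners PBX and MEIS. The question put to the data was which HOX genes carried a Pol II peak in each list, by cluster and by position.

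A peak is a stretch of DNA where the authors' peak caller found Pol II reads enriched. The shLacZ list held 3920 peaks on chromosomes 1 to 22, X and Y, and the shRRN3 list held 14322. Each peak has a score, a number without unit whose formula is not given in the sources used here. A score or width percentile here is the share of the same list, peaks on other sequences included, with a lower value. Scores can depend on sequencing depth, which is unknown from peak lists, so they were ranked within a list and not compared between lists. A common score cutoff was used only in an alternative setting given at the end. With 1 library per hairpin the hairpins could not be compared against replicate spread, and no p-value was computed. Intervals are exact Clopper-Pearson 95% intervals over genes. They cover counting error only and treat neighbouring genes as independent, which genes of a cluster are not. A culture is a bulk sample, so Pol II in fewer cells and less Pol II per cell cannot be told apart. The hairpin acts on RNA, so the lists hold no check of the knockdown itself. As a check of the line, PAX8, a transcription factor of the Müllerian epithelium, had a peak at its start in both lists, scored 147.99 in shLacZ and 354.44 in shRRN3. The neighbouring epithelial keratin genes KRT8 and KRT18 shared 1 peak, scored 120.86, in shRRN3 alone, and WT1 and ERBB2 had none at their starts in either list.

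Sequences are shown for stretches of the HOXB cluster that are described below, read from hg38. The first window is centred on the shLacZ midpoint of the peak found in both lists in the gap between HOXB1 and HOXB2. The second is the middle of the neighbouring peak found in the shRRN3 list alone. The third is the 250 bases before the start of HOXB1, the gene on one side of that gap, which had no peak of its own. Capitals mark CCAAT, the CCAAT box bound by the factor NF-Y, on either strand (ATTGG when read on the other), and in the HOXB1 sequence also TGATNNAT, a site bound jointly by HOX and PBX proteins. No capitalised copies shared bases with each other.
Peak in both lists, chr17:48539376-48539675, plus strand: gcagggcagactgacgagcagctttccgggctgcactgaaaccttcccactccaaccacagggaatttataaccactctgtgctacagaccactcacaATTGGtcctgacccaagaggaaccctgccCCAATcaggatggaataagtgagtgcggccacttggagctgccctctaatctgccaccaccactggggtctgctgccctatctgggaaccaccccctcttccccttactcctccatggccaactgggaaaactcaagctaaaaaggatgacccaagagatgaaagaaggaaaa
Peak in shRRN3 alone, chr17:48537525-48537824, plus strand: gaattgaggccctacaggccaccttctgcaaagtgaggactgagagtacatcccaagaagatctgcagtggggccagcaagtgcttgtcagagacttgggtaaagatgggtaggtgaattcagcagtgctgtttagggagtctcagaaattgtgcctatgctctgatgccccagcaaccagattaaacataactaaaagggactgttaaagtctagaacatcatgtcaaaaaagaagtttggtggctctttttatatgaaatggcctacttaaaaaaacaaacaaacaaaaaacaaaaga
HOXB1, 250 bases before the start, chr17:48531012-48531261, minus strand (RefSeq): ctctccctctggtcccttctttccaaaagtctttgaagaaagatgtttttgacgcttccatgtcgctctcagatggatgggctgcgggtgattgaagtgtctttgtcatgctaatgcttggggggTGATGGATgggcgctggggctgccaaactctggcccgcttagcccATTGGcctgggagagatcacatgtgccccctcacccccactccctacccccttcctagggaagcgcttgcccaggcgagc

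The shared window held 2 copies of CCAAT, 3 CpG dinucleotides and 53.67% GC, and the shRRN3 window beside it held no CCAAT, no CpG and 42% GC. Each held 1 copy of TATAAA, the TATA box, which was not capitalised. Of all 300-base windows around the midpoints of peaks, 37.6% in the shLacZ list and 36.7% in the shRRN3 list held CCAAT, and 17.7% and 17.2% held TATAAA, on either strand. The HOXB1 sequence held 1 TGATNNAT copy that began 125 bases before the start, 1 CCAAT copy that began 80 bases before it, and 7 CpG dinucleotides. TGATNNAT occurred in 12.0% of the shLacZ and 13.4% of the shRRN3 peak windows and in neither of the windows printed here.

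MicroRNA genes lie among the HOX genes and are known to act on HOX messages, so 3 of their mature sequences are shown, with the seed (bases 2 to 8, which pair with the target) in capitals. MIR10A lies upstream of HOXB4 in the HOXB cluster, MIR196A1 in the HOXB cluster and MIR196A2 in the HOXC cluster encode the same mature sequence, and MIR196B lies in the HOXA cluster.
hsa-miR-10a-5p: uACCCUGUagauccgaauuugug
hsa-miR-196a-5p: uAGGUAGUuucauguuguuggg
hsa-miR-196b-5p: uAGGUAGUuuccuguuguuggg

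Products of MIR196A1, MIR196A2 and MIR196B shared the seed AGGUAGU. None of the 8 microRNA genes of the 4 clusters had a peak midpoint within 1 kb of its start in either list. The nearest to a peak was MIR10A (chr17:48579838-48579947), which lay 342 bp from the shRRN3 peak at the start of HOXB4. In the shLacZ list the nearest peak to MIR10A was 17395 bp away.

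Across the 39 HOX genes, Pol II peaks were found almost entirely in the HOXB cluster. A gene was counted as having a start peak when a peak midpoint lay within 1 kb of its transcription start site (TSS), taken as the upstream bound of the annotated gene. In the shLacZ list 2 of 39 HOX genes had a start peak (5.13%, 95% interval 0.627 to 17.3%), against 7.56% of all protein-coding genes. These were HOXB3 and HOXB6, whose upstream bounds lie close together under 1 common peak. In the shRRN3 list 7 of 39 had one (17.95%, 7.54 to 33.5%), against 23.7% of all protein-coding genes. These were HOXB2, HOXB3, HOXB4, HOXB5, HOXB6 and HOXB9 in the HOXB cluster, and HOXA5. Both shares of the whole family lay below the share of all genes, and both intervals included that share.

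HOXB3 and HOXB6 had a start peak in both lists, 5.13% of the HOX genes against 6.41% of all genes. The other 5, HOXA5, HOXB2, HOXB4, HOXB5 and HOXB9, had one in the shRRN3 list alone (12.8%, 4.30 to 27.4%), against 17.3% of all genes. No HOX gene had a start peak in the shLacZ list alone, nor did most genes, with 1.15% of all genes in that class. When the shRRN3 list was shortened to its top 3920 peaks by score, the length of the shLacZ list, the genes with a start peak there were 3 (HOXB3, HOXB5 and HOXB6), of which 1, HOXB5, was in shRRN3 alone. In that shortened list 9.74% of all genes had a start peak and 5.5% had one there but not in shLacZ, against 7.69% (1.62 to 20.9%) and 2.56% (0.0649 to 13.5%) of the HOX genes.

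**Figure D1:**
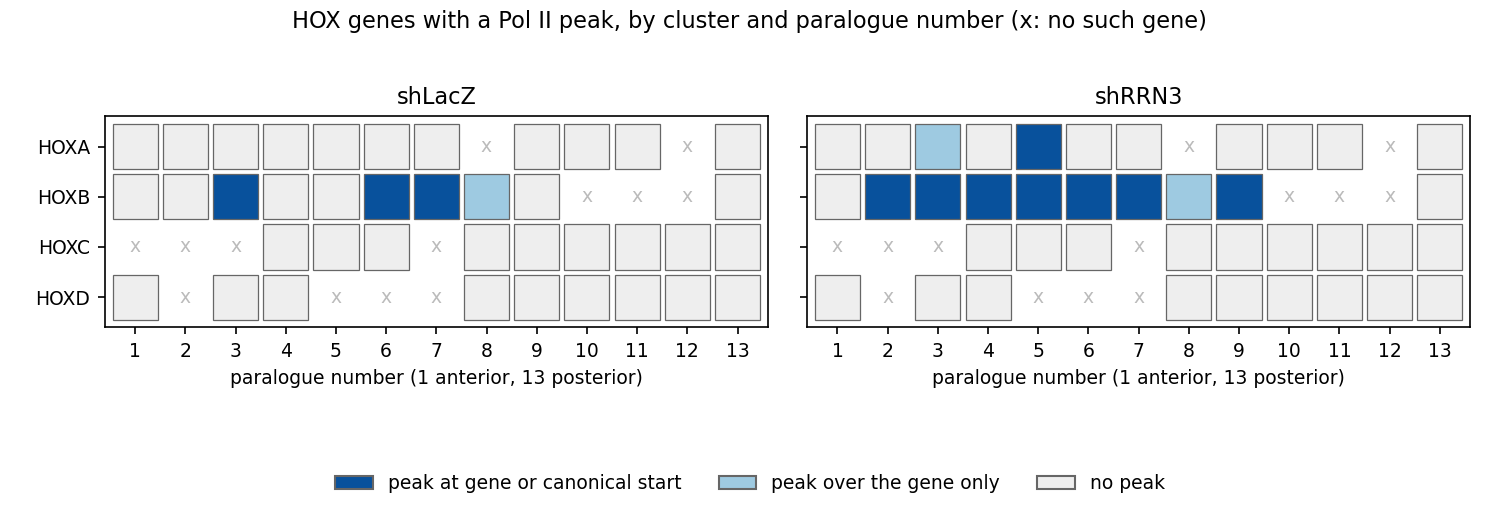
HOX genes by cluster (rows) and paralogue number (columns) in the shLacZ (left) and shRRN3 (right) peak lists. Dark squares had a peak midpoint within 1 kb of the upstream bound of the gene or of its canonical start, light squares a peak over the gene only, grey squares no peak, and x marks numbers with no gene in that cluster; the filled squares form a run from HOXB2 to HOXB9 in shRRN3, with HOXA3 and HOXA5 the only others.

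Counting any peak that touched the annotated gene, 4 HOX genes had a peak in shLacZ (10.3%, 2.87 to 24.2%), against 11.8% of all genes, and 10 had one in shRRN3 (25.6%, 13 to 42.1%), against 33.8%. The 4 in shLacZ were HOXB3, HOXB6, HOXB7 and HOXB8. The 10 in shRRN3 were all 8 genes from HOXB2 to HOXB9, with HOXA5 and HOXA3. HOXA3 was counted because its long annotated span (chr7:27106184-27152583) runs over HOXA5 and its peak. In the shortened shRRN3 list it was 6 HOX genes (15.4%, 5.86 to 30.5%), against 14.3% of all genes.

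The HOXB cluster held most of these genes under either count. A start peak was found at 2 of 10 HOXB genes in shLacZ (20.0%, 2.52 to 55.6%) and at 6 of 10 in shRRN3 (60.0%, 26.2 to 87.8%). The lower bound of the shRRN3 share lay above the 23.7% of all genes, and the shLacZ interval included 7.56%. HOXB was singled out by its counts in these same lists and its genes are neighbours. These intervals therefore do not test HOXB against all genes. The 6 genes rest on 5 peaks, since HOXB3 and HOXB6 share one. In the shortened shRRN3 list 3 of 10 HOXB genes had a start peak (30.0%, 6.67 to 65.2%), and that interval included the 9.74% of all genes. Over the gene, HOXB had a peak at 4 of 10 (40.0%, 12.2 to 73.8%) in shLacZ and at 8 of 10 (80.0%, 44.4 to 97.5%) in shRRN3. These counts also share peaks. In both lists every peak over HOXB3 also touched HOXB4, HOXB5 or HOXB6, over which its long span runs. In shLacZ, HOXB7 and HOXB8 share 1 peak, and the peaks touched the canonical transcripts of HOXB6 and HOXB7 only. The 2 HOXB genes without any peak were those at the ends of the cluster, HOXB1, which patterns the hindbrain segment that gives rise to the facial nerve, and HOXB13, a prostate and hindgut gene.

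Outside HOXB, start peaks were rare or not detected. Of the 29 genes in HOXA, HOXC and HOXD, none had a start peak in shLacZ, against 7.56% of all genes. The exact upper bound is 11.9%, and a limit of 3 counts gives 10.3%. In shRRN3 1 had a start peak (3.45%, 0.0873 to 17.8%), against 23.7% of all genes. Over the gene, none had a peak in shLacZ, against 11.8% of all genes. In shRRN3 2 had one, HOXA3 and HOXA5 under the same peak (6.90%, 0.846 to 22.8%), against 33.8%. None of the 18 HOXC and HOXD genes had a peak over the gene in either list. The exact upper bound is 18.5% for both clusters together and 33.6% for each, and the limit of 3 counts gives 16.7% and 33.3%. These genes included HOXC6 and HOXC8 of the trunk, HOXD10 to HOXD13 of the limb and external genitalia, and HOXD1, HOXD3 and HOXD4. The HOXA genes used along the female tract, HOXA9, HOXA10, HOXA11 and HOXA13, had no peak in either list, and their upstream bounds were at least 31536 bp from the nearest shRRN3 peak midpoint. A peak missing from a list says that none was called at the depth of that library, not that Pol II was absent.

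**Figure D2:**
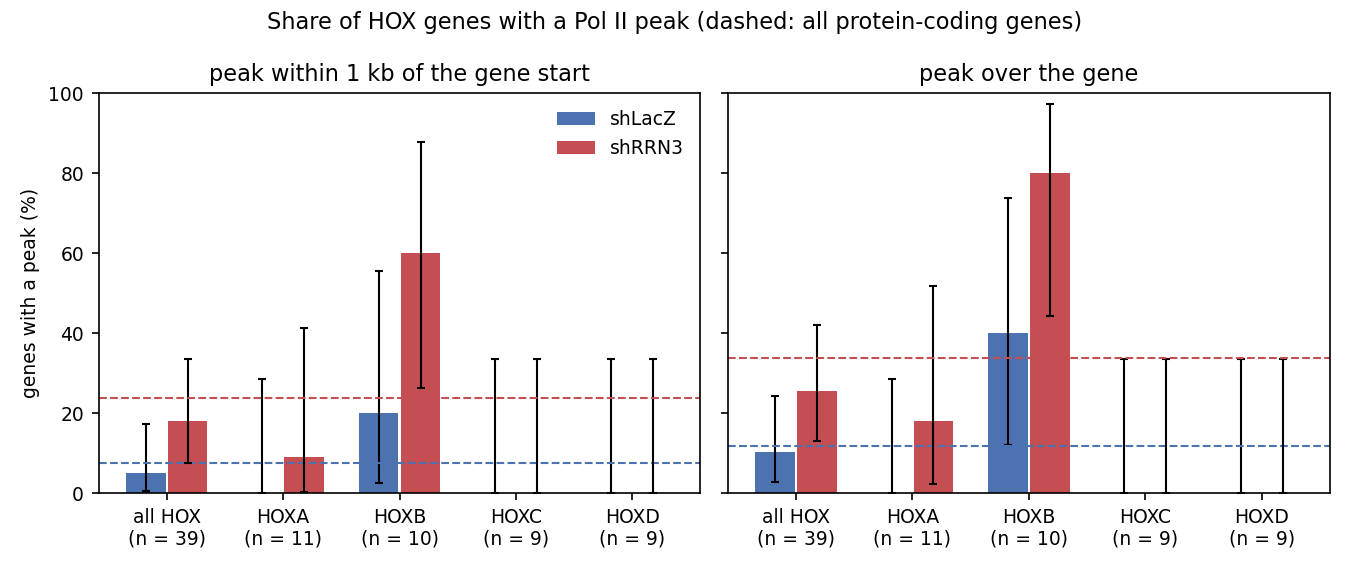
Share of HOX genes (vertical axis, %) with a peak at the gene start (left) or over the gene (right), for all 39 HOX genes and by cluster, in shLacZ (blue) and shRRN3 (red). Error bars are exact 95% intervals over genes and dashed lines the shares of all 20033 protein-coding genes; the HOXB bars for shRRN3 reach 60.0% and 80.0%, HOXC and HOXD stay at 0.

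Genes were also grouped by position. In shRRN3 a start peak lay at 2 of 8 anterior (paralogue numbers 1 to 3), 4 of 15 central (4 to 8) and 1 of 16 posterior (9 to 13) genes, and in shLacZ at 1 of 8, 1 of 15 and 0 of 16. Over the gene the shRRN3 counts were 3 of 8, 6 of 15 and 1 of 16. The shRRN3 start shares were 25% (3.19 to 65.1%) for anterior, 26.7% (7.79 to 55.1%) for central and 6.25% (0.158 to 30.2%) for posterior genes. The intervals overlap, and each includes the 23.7% of all genes. Over the gene the shares were 37.5% (8.52 to 75.5%), 40% (16.3 to 67.7%) and 6.25% (0.158 to 30.2%), against 33.8% of all genes. The posterior interval lies below that share, but it treats neighbouring genes as independent. At canonical starts, shRRN3 peaks lay at 1 anterior, 5 central and 1 posterior gene, and shLacZ peaks at 2 central genes only. The posterior gene with a peak was HOXB9, and position and cluster cannot be told apart here, because nearly all genes with peaks belong to HOXB. Within HOXB, all 5 central genes had a shRRN3 peak over the gene, as did 2 of 3 anterior genes and 1 of 2 posterior genes.

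The 8 genes from HOXB2 to HOXB9 have 16 paralogues in the other clusters, of which 2, HOXA3 and HOXA5, had a shRRN3 peak over the gene, against 33.8% of all genes. Paralogue number 5 was the only number with a start peak in more than 1 cluster, at HOXA5 and HOXB5. HOXA2, HOXA4, HOXA6, HOXA7, HOXC4, HOXC5, HOXC6, HOXC8, HOXC9, HOXD3, HOXD4, HOXD8, HOXD9 and HOXA9 had no peak over the gene in either list.

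In the shLacZ list the HOXB cluster (chr17:48528526-48728750, 200.2 kb) held 4 peaks that covered 3.763 kb, 1.88% of it. All 4 fell within a stretch of 72.25 kb from the gap between HOXB1 and HOXB2 to HOXB8. In the shRRN3 list it held 13 peaks that covered 17.18 kb, 8.58% of it, in a stretch of 90.07 kb. That stretch began 6.245 kb upstream of HOXB1 and ended 97.44 kb before HOXB13. All 4 shLacZ peaks were overlapped by shRRN3 peaks, sharing 418, 509, 1289 and 1013 bp, and 9 of the 13 shRRN3 peaks overlapped none in shLacZ. Over all peaks, 33.8% of the shLacZ list and 83.1% of the longer shRRN3 list overlapped none of the other list. In the shortened shRRN3 list HOXB held 6 peaks.

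**Figure D3:**
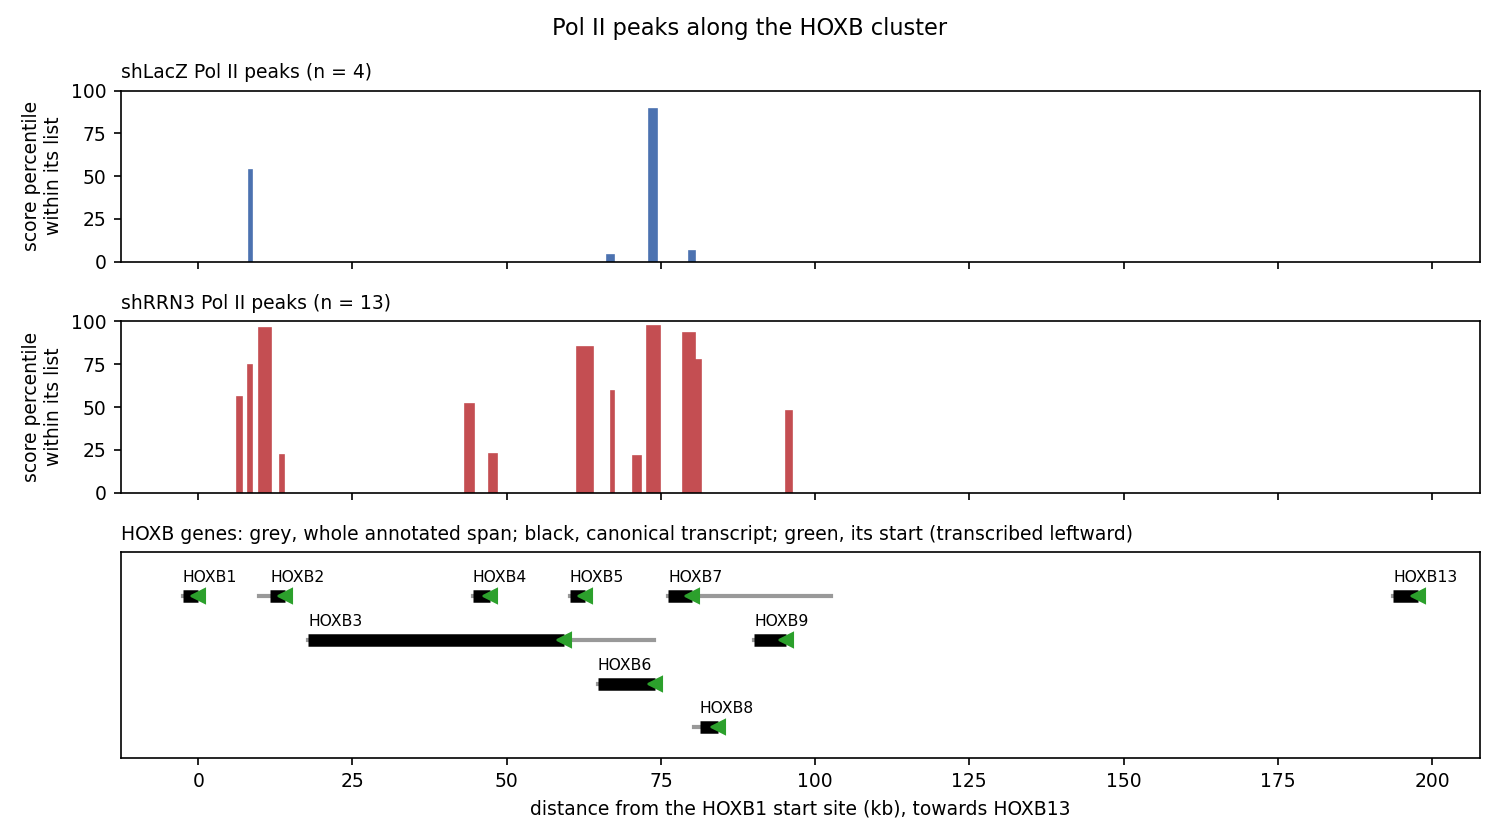
Pol II peaks along the HOXB cluster, by distance in kb from the HOXB1 start towards HOXB13, in shLacZ (top, 4 peaks) and shRRN3 (middle, 13 peaks), with the genes below; bar height is the score percentile within each list and bar width the peak width. Peaks run from the gap after HOXB1 to HOXB9, and the 97.44 kb before HOXB13 hold none.

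The highest-scoring HOX peak of both lists lay at the common start of HOXB6 and of the long HOXB3 transcripts. HOXB3 and HOXB6 act in hindbrain and trunk patterning, and both are studied in blood cells. In shLacZ the peak spanned chr17:48604148-48605436 (1289 bp) with a score of 140, higher than 89.1% of that list. In shRRN3 it spanned chr17:48603713-48605851 (2139 bp) with a score of 293.22, higher than 97.4% of that list, and contained the shLacZ peak whole. The shLacZ midpoint lay 120 bp inside the upstream bound of HOXB3 and 200 bp inside that of HOXB6, and the shRRN3 midpoint lay 130 and 210 bp inside them. The canonical HOXB3 transcript, the one GENCODE marks as representative, starts 14671 bp further downstream. No peak midpoint lay within 1 kb of that start, the nearest being 7610 bp away in shLacZ and 3443 bp in shRRN3.

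HOXB6 carried a further shared peak in its coding part and 1 more in shRRN3. The shared one spanned chr17:48597342-48598360 in shLacZ, with a score of 50.76 near the bottom of that list (percentile 3.86), and chr17:48597852-48598458 in shRRN3, with a score of 83.44 (percentile 59.1). The other, chr17:48601476-48602707, lay in an intron of HOXB6 and had a score of 57.03 (percentile 21.2). In all, peaks covered 20.2% of the HOXB6 span in shLacZ and 33.8% in shRRN3.

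HOXB7, a gene often studied in breast and ovarian tumors, had a peak at its canonical start in both lists and none at its upstream bound, which lies 22555 bp further upstream. The shLacZ peak, chr17:48610539-48611551, had its midpoint 28 bp from that start and a score of 51.06 (percentile 6.15). The shRRN3 peak, chr17:48609656-48611577, had its midpoint 401 bp from it and a score of 193.51 (percentile 93.2). Counted by canonical starts, 2 HOX genes had a start peak in shLacZ (HOXB6 and HOXB7; 8.18% of all genes had one) and 7 in shRRN3 (HOXA5, HOXB2, HOXB4, HOXB5, HOXB6, HOXB7 and HOXB9; 25.4% of all genes). The totals were those found with upstream bounds, with HOXB7 in the place of HOXB3.

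HOXB5 carried the widest HOX peak. It spanned chr17:48592367-48595001 (2635 bp, wider than 99.6% of the shRRN3 list), with its midpoint 95 bp inside the start and a score of 137.93 (percentile 84.9). Peaks covered 56.0% of the HOXB5 span. The nearest shLacZ peak was 2341 bp away. HOXB5 was the only gene with a start peak in shRRN3 alone that kept it in the shortened shRRN3 list.

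HOXB2, a hindbrain gene with HOXB1 as a known activator, had 2 shRRN3 peaks and none in shLacZ. The first, chr17:48544274-48544955, had its midpoint 495 bp inside the start, over a coding exon, and a score of 57.36 (percentile 21.8). The other, chr17:48540924-48542794, lay over the 3' end of the gene and had a score of 241.95 (percentile 95.9), below only the HOXB6 start peak among the HOX peaks of that list. The canonical HOXB2 transcript ends within that peak, at 48542655 on the minus strand. Peaks covered 60.6% of the HOXB2 span, the largest share among the HOX genes. The peak found in both lists beyond HOXB2, printed above around its shLacZ midpoint, scored 68.1 (percentile 53.4) in shLacZ and 106.42 (percentile 74.3) in shRRN3. Its midpoint lay 1368 bp in shLacZ and 1478 bp in shRRN3 past the downstream bound of the annotated HOXB2 gene. That bound, at 48540894, lies beyond the canonical end. The peak nearest to HOXB1, also printed above, scored 80.13 (percentile 55.8) and lay 6664 bp upstream of the HOXB1 start.

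HOXB4, known for expanding blood stem cells when overexpressed, also had a shRRN3 peak at each end and none in shLacZ. The start peak, chr17:48578185-48579496, had its midpoint 490 bp upstream of the start and a score of 57.77 (percentile 22.8). The end peak, chr17:48574315-48575652, had its midpoint 524 bp past the end and a score of 75.91 (percentile 51.6). Both lie within an intron of HOXB3, and their part in either gene cannot be told apart from peaks, which carry no strand.

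HOXB8, a blood and nervous system gene, had peaks over its 3' end but none at its start. In shLacZ this was the peak at the canonical HOXB7 start, which reaches into the end of the HOXB8 span. In shRRN3 a separate peak, chr17:48611586-48612539, scored 113.38 (percentile 77.5) and directly adjoined the HOXB7 peak. Its midpoint was 3230 bp from the HOXB8 start. HOXB9, the only posterior gene with a peak, had one in shRRN3, chr17:48626292-48627328, with its midpoint 452 bp upstream of the start and a score of 72.51 (percentile 47.6). The nearest shLacZ peak to it was 14741 bp away.

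HOXA5, which acts in lung and diaphragm development, had the only peak outside HOXB. It spanned chr7:27143510-27143778 in shRRN3, with its midpoint 37 bp inside the start. At 269 bp it was narrower than most of the list (width percentile 17.2), and its score of 52.81 ranked 12940 of 14363 (percentile 9.89), so it was not in the shortened list. The nearest shLacZ peak was 942688 bp away.

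At gene ends, a peak midpoint within 1 kb of the downstream bound (transcription termination site) was found at 1 HOX gene in shLacZ, HOXB8 at 332 bp (2.56%, 0.0649 to 13.5%), against 1.12% of all genes. In shRRN3 it was found at 3, HOXB2 at 965 bp, HOXB4 at 524 bp and HOXB8 at 685 bp (7.69%, 1.62 to 20.9%), against 3.58% of all genes. All 3 are in HOXB, where genes stand close together, and both HOX intervals included the share of all genes. At the ends of canonical transcripts the count was 0 in shLacZ (1.15% of all genes), since the HOXB8 call rests on the downstream bound of the gene, and 3 in shRRN3, at the genes just named (3.58%). For HOXB8 the end peak in shLacZ is the one that lay at the start of HOXB7.

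The HOXB peaks were wide for their lists. Their median width was 1016 bp in shLacZ, against 304 bp over that list, and 1232 bp in shRRN3, against 432 bp. All 4 shLacZ and all 13 shRRN3 HOXB peaks were wider than the median of their list, and 8 of the 13 were at least 1 kb wide. Their scores were less uniform, and 2 of 4 in shLacZ and 9 of 13 in shRRN3 lay above the list median. Their median GC content was 53.6% in shLacZ, against 48.7% over the list, and 56.5% in shRRN3, against 47.3%. The list medians take in peaks at all locations, and HOXB peaks were not set against peaks at gene starts alone.

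**Figure D4:**
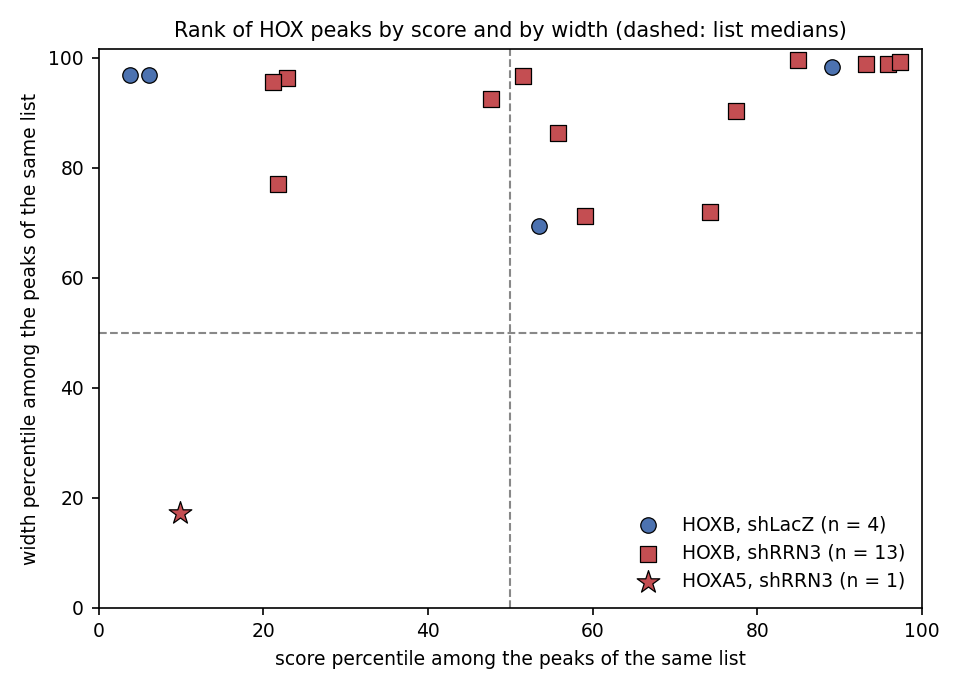
Score percentile (horizontal axis) and width percentile (vertical axis) of each HOX peak within its own list, for HOXB in shLacZ (4 circles), HOXB in shRRN3 (13 squares) and HOXA5 in shRRN3 (star); dashed lines mark list medians. All HOXB peaks lie above the width median, on both sides of the score median, and the HOXA5 peak lies below both medians.

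HOXB held more peaks per length than its surroundings in both lists. HOXB held 1.998 peaks per 100 kb in shLacZ and 6.493 in shRRN3, while the 500 kb on both sides together held 0.3 and 1.9, and the genome 0.127 and 0.464. HOXC showed the opposite arrangement, with no peak in its 117.2 kb in either list but 15 shLacZ and 26 shRRN3 peaks in its flanks. The nearest shLacZ peaks were 262.7 and 132.7 kb from the ends of HOXC, and the nearest shRRN3 peaks 312.2 and 173.6 kb. HOXD (98.19 kb) held none, with 1 and 5 peaks in its flanks. HOXA (107.1 kb) held 0 and 1, with 0 and 3 in its flanks.

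Genes next to the clusters were examined for comparison. Among the 3 nearest protein-coding genes on each side of each cluster, 24 in all, 6 had a start peak in shLacZ and 10 in shRRN3. Of all protein-coding genes 7.56% and 23.7% had one. Distances from the cluster ends ran from 8.759 kb (EVX2) to 1028 kb (NFE2L2). Around HOXC, CBX5 (the heterochromatin protein HP1 alpha) and HNRNPA1 (an RNA-binding protein) shared a start peak in both lists, scored 101.24 in shLacZ and 649.98 in shRRN3. SMUG1, a DNA repair glycosylase, had one in shLacZ alone and ATF7, a transcription factor, in shRRN3 alone. Around HOXB, none of the 6 had a start peak in shLacZ, and CBX1 (scored 114.07) and ATP5MC1 (62.16) had one in shRRN3. Around HOXA, CBX3 had one in both lists (246.87 and 174.86) and TAX1BP1 in shRRN3 (106.83). Around HOXD, HNRNPA3 had one in both (64.58 and 223.28), ATP5MC3 in shLacZ (67.0), and MTX2 (109.47) and NFE2L2 (146.79) in shRRN3. The homeobox genes EVX1 and EVX2, which adjoin the posterior ends of HOXA and HOXD, had none.

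The clusters also hold 61 other annotated genes, of which 28 are long noncoding RNAs. None of the 61 had a peak midpoint within 1 kb of its upstream bound in either list. The share over all annotated genes of these types was not counted. HOTAIR, HOTTIP, HOTAIRM1 and HAGLR, noncoding RNAs known as regulators of HOX loci or markers of their activity, had no peak over the gene. With the starts of all annotated transcripts, the antisense RNAs HOXB-AS1 and HOXB-AS3 had a start peak in shRRN3 and none did in shLacZ. Over the gene, HOXB-AS3 had a peak in shLacZ, and HOXB-AS1, HOXB-AS3, HOXA-AS3 and ENSG00000273433 had one in shRRN3. Each of these 4 overlaps HOX genes that carry the same peaks, and without strand the peaks cannot be given to one or the other.

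Base composition at the start was close to that of other genes. Within 500 bp of the upstream bound, median GC was 59.6% over the 39 HOX genes (45.8 to 75.4%) and 59.2% over all protein-coding genes. The median CpG ratio, observed over expected CpG dinucleotides, was 0.695 (0.274 to 0.981) and 0.688. HOXD had the highest medians (62.6% GC, CpG ratio 0.817) and no peak, and HOXB had 58.2% and 0.684. HOXB3 and HOXB6, the genes with a start peak in both lists, had CpG ratios of 0.386 and 0.373, lower than those of most HOX genes, while HOXA5 had the highest, 0.981. Among genes with a CpG ratio of at least 0.6, a start peak in shRRN3 was found at 4 of 27 HOX genes (14.8%) and at 35.6% of 12025 protein-coding genes, and in shLacZ at 0 of 27 and at 11.7%. These values rest on upstream bounds, and no intervals were computed for the shares of the 27 genes. The cutoff of 0.6 leaves out HOXB2 (0.585), HOXB3 and HOXB6. HOXB3 and HOXB6 are the only HOX genes with a start peak in shLacZ. At canonical starts the median CpG ratio was 0.775 for HOX genes and 0.725 for all genes, with HOXA9 highest at 1.015. HOXB7, with a peak at its canonical start in both lists, had a ratio of 0.889 there.

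**Figure D5:**
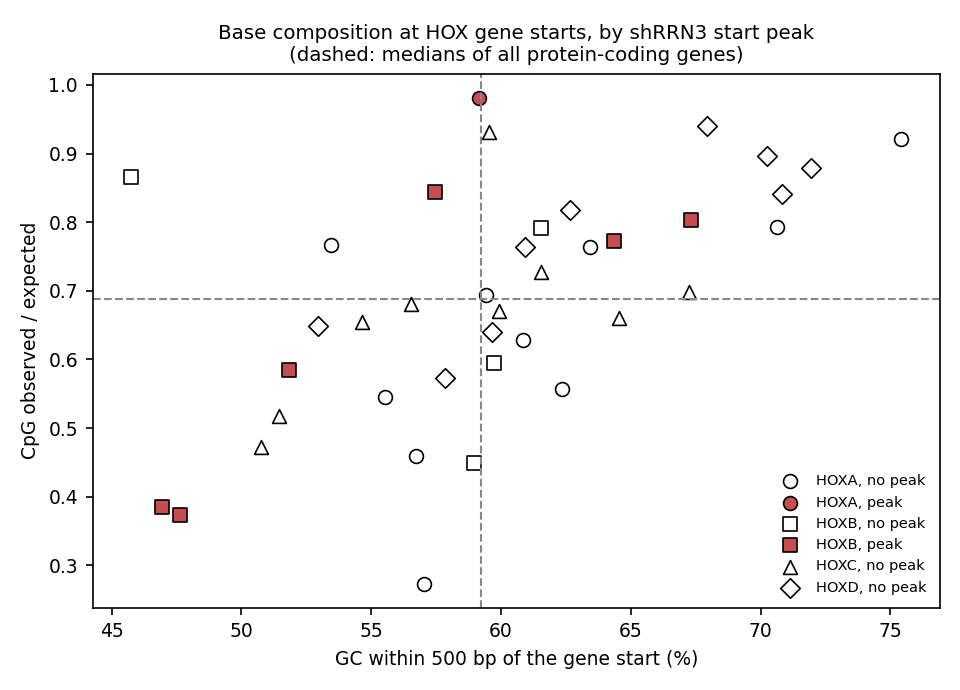
GC content (horizontal axis, %) and CpG observed over expected (vertical axis) within 500 bp of the upstream bound of each HOX gene, by cluster (marker shape), filled where the shRRN3 list had a start peak; dashed lines are the medians of all protein-coding genes. The 7 filled markers are spread over the range, from HOXB6 at a CpG ratio of 0.373 to HOXA5 at 0.981.

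RefSeq upstream sequences, 250 bases before the start, were at hand for 20 HOX genes, and none of these 20 had a start peak in either list. HOXC4 and HOXC5 have the same one, which leaves 19 different sequences. CCAAT, on either strand, occurred in 16 of the 19 (84.2%) and in 34.8% of the 15345 upstream sequences of protein-coding genes. HOXA2 had 4 copies, and HOXA11, HOXD8 and HOXD11 had none. TATAAA occurred in 4 of 19 (21.1%, against 9.23%), the GC box GGGCGG in 10 (52.6%, against 56.7%), TGATNNAT in 3 (15.8%, against 4.35%) and the homeodomain core TAATTA in 2 (10.5%, against 3.10%). The motifs were searched one by one, so copies of different motifs may overlap. The 3 with TGATNNAT were HOXA2, HOXB1 and HOXD11. These are matches of letters, not evidence of binding.

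Genes that work with or regulate HOX genes were examined as a list of 37. A start peak was found at 3 of them (8.11%) in shLacZ and 11 (29.7%) in shRRN3, against 7.56% and 23.7% of all genes. Of 9 TALE cofactors, none had one in shLacZ, and PBX3 (scored 109.95), MEIS1 (58.37) and MEIS2 (80.98) had one in shRRN3. Of 5 Trithorax genes, which keep HOX genes active, RBBP5 had one in both lists (84.07 and 60.69) and KMT2A (67.0), MEN1 (66.02), ASH2L (181.25) and WDR5 (87.53) in shRRN3 alone. Of 6 genes of Polycomb repressive complex 2, which keeps HOX genes silent, SUZ12 had one in both (56.03 and 123.09), RBBP7 in shLacZ alone (55.46), and EZH2 (103.08) and RBBP4 (95.86) in shRRN3 alone. None of 8 related homeobox genes (CDX1, CDX2, CDX4, EVX1, EVX2, PDX1, GSX1 and GSX2) and none of 9 genes of the retinoic acid pathway, which induces HOX genes in the embryo, had one in either list. At canonical starts the counts were 5 of 37 in shLacZ and 12 in shRRN3, and 8.18% and 25.4% of all genes had a peak there. Canonical starts added MEIS1 and EED in shLacZ, added EED and the retinoic acid receptor gene RARB in shRRN3, and removed MEIS2 in shRRN3.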

How the data were processed

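The authors deposited 1 list of Pol II peaks per immunoprecipitated library, with coordinates and a score per peak. The score is unitless and was taken from the deposited lists as it stands, with a lowest value of 50.03 in shLacZ and 50 in shRRN3. Its formula, the aligner, the threshold, the handling of duplicates and the use of the input are not given in the sources used here, although peaks are named after the program MACS. The build, hg38, is from the submitters' processing notes. The total of each list was 4014 and 14363 peaks, and those on other sequences were left out.

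Genes came from GENCODE 44, and upstream and microRNA sequences from RefSeq tables on hg38. A HOX upstream sequence is shown for HOXB1. Overlap meant at least 1 shared base. The members and gene lists were chosen with earlier results of these data known. All 39 genes are accounted for, those with a start peak or the best peak of a cluster in full, and other genes are named when they had a start peak; remaining names were chosen after their values were seen. Window counts and overlaps were tested on simulated data, and overlaps also checked against bedtools 2.31.1. Tools were scipy 1.17.1, pandas 2.3.3, numpy 2.4.6, matplotlib 3.10.9 and Python 3.11.15. The alternatives were other windows, start definitions, overlap rules, a stricter score and a shortened shRRN3 list.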

Additional observations from a re-analysis of the deposited data

How the results depend on the processing

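Of 58 values under other settings, 43 stayed within 1.5 times the reported count. Some of the 43 could not move, since shortening the shRRN3 list leaves counts taken only from the shLacZ list unchanged. A further 9 were the count of 0 HOX genes with a start peak in shLacZ alone. With scores of at least 66.05, the median of the shLacZ list, start peaks in shRRN3 fell from 7 to 4 genes and those in shRRN3 alone from 5 to 2, genes with a shLacZ peak over them from 4 to 2, shLacZ peaks in the clusters from 4 to 2, and overlapped peaks from 4 to 2 in each list. With the shRRN3 list shortened to 3920 peaks (scores of at least 102.86), start peaks in shRRN3 were 3 genes and 1 in shRRN3 alone, genes with a shRRN3 peak over them 6 in place of 10, and shRRN3 peaks in the clusters 6 in place of 14. The cutoff of 66.05 kept 1931 shLacZ and 8737 shRRN3 peaks, although scores of the lists are not known to share a scale. The share of all genes was not counted under that cutoff, so the falls cannot be set against those of all genes. By construction both settings remove low-scoring peaks. Canonical starts combined with each, chosen after seeing the data, gave 3 genes in shRRN3 and 1 in shRRN3 alone in the shortened list, and 1 gene in shLacZ, 4 in shRRN3 and 3 in shRRN3 alone with the stricter score. Start peaks in shLacZ alone stayed at 0 HOX genes, in a class that holds 1.15% of all genes. No paired analysis was possible because a hairpin had a single library. Depth is unknown from the peak lists, so a missing peak cannot be told apart from one too weak to be called, and no setting replaces a replicate.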
